A study of Mus musculus with 6 samples.

Results

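Mitochondria carry DNA and proteins that resemble those of bacteria, and mammalian cells can sense both when they appear in the wrong place. The 10 genes described here encode receptors and adaptors of that kind: the Toll-like receptors Tlr1, Tlr2, Tlr3, Tlr4, Tlr6 and Tlr9, the adaptors Myd88 and Ticam1, and the formyl peptide receptors Fpr1 and Fpr2. They were taken by gene symbol, with earlier results of these data known. All 10 were found once each among the 28812 genes of the deposited table. Paired-end sequencing of polyadenylated RNA covers 6 libraries made from chondrocytes, the mouse cells that build cartilage. All 6 libraries came from cells of wt genotype that are labelled OA (osteoarthritis) and that were treated with IL-1β, an inflammatory cytokine. In 3 libraries the cells also received vehicle and in 3 they received mitochondria, which the series title traces to osteocytes, the resident cells of bone. The age of the animals, the dose and the time after transplantation are not given in the sources used here, and no library without IL-1β was analysed here.

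Toll-like receptors are membrane proteins that recognise molecular patterns and recruit adaptors through their intracellular TIR domains. TLR2 pairs with TLR1 or TLR6 at the cell surface and recognises lipoproteins, TLR4 acts at the surface with MD-2 and CD14, and TLR3 and TLR9 sit in endosomes, where they recognise double-stranded RNA and unmethylated CpG DNA. Mitochondrial DNA is a known ligand of TLR9. MyD88 serves all of these receptors except TLR3, and it serves the IL-1 receptor too, whereas TRIF, the product of Ticam1, serves TLR3 and TLR4 and leads to interferon genes. FPR1 and FPR2 are G protein-coupled receptors of phagocytes that recognise the formylated peptides with which bacterial and mitochondrial proteins begin.

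The libraries held 63547854 to 66293786 deposited counts. Low counts piled up at 4, with 2.31 to 2.84 times as many genes there as at the neighbouring values, so 1 sequenced fragment is taken to be worth about 4 counts. Vehicle replicate 1 lay nearer the mitochondria libraries on the first principal component (-30.39) than vehicle replicates 2 and 3 did (-56.75 and -56.36), and mitochondria replicate 1 (81.44) lay farther out than mitochondria replicates 2 and 3 (27.36 and 34.7). The cartilage collagen Col2a1 stood at 88.1 to 123 FPKM (FPKM is the authors' level per gene, corrected for transcript length and library depth) and the chondrocyte factor Sox9 at 8.82 to 14.8 FPKM, beside 687 to 838 FPKM of Col1a1, the collagen of fibroblasts and bone. Because these are bulk samples, fewer cells of a type and less RNA per cell cannot be told apart. The labels do not say whether replicates were separate cultures or animals, so p-values measure the spread between these libraries only.

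In the chondrocyte libraries, 4 of the 10 genes stood at a clear level, namely Tlr2, Tlr4, Myd88 and Ticam1. The adaptor gene Ticam1 rose with mitochondria, by 1.57-fold, and the receptor genes Tlr2 and Tlr4 fell, with 1.32-fold and 1.73-fold higher levels in vehicle. With GC offsets, described below for Tlr4, the log2 fold changes of Tlr2 and Tlr4 were -0.37 and -0.34. The calls of Tlr2 and Tlr4 were each lost in 4 of 6 fits that left out a library, and that of Ticam1 in 2. The shared adaptor gene Myd88 did not pass the test. Of the receptors most directly tied to mitochondrial ligands, Tlr9 and Fpr2 were at the limit of detection, with counts in 1 library each. Fpr1 gave counts in 4 libraries, with 77 deposited counts in vehicle replicate 1 and 0 in vehicle replicates 2 and 3. Of the 10 genes, 8 had enough counts to be tested by edgeR's quasi-likelihood test, 1 was higher and 2 were lower at an adjusted p of 0.05 or less, and 5 did not pass. Over all 17290 genes tested, 14.8% passed in either direction, 6.36% higher and 8.46% lower. The members' median log2 fold change was -0.32 and that of all genes 0.0031, and with 8 members this is a description only. The plot of levels by library shows each value.

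**Figure D1:**
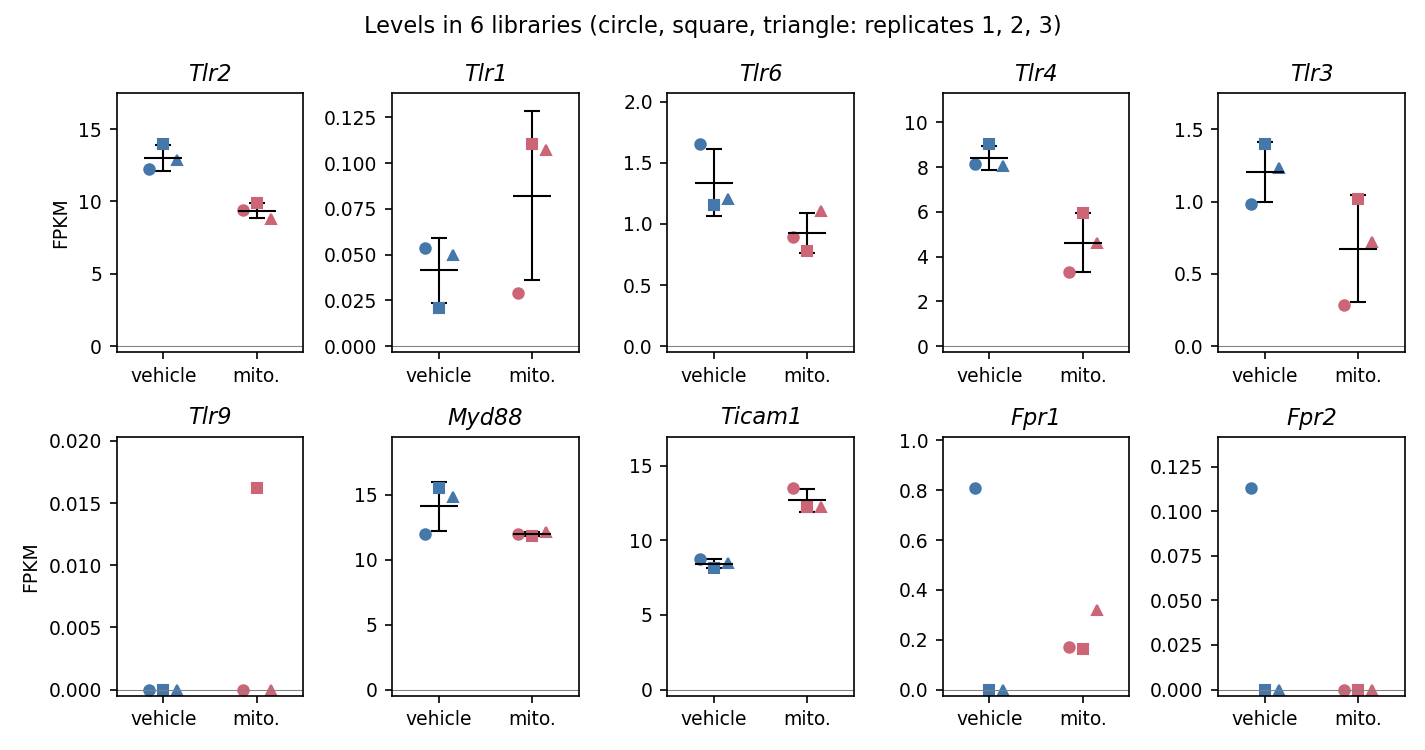
FPKM of the 10 genes (y axis, a scale of its own in each panel) in vehicle and mitochondria libraries. Circles, squares and triangles are replicates 1, 2 and 3, and the bars are the mean and SD of 3 libraries, left out for Tlr9, Fpr1 and Fpr2, which are at 0 in some libraries. On the FPKM scale the groups stand apart for Tlr2, Tlr4, Tlr6 and Ticam1. The share over all genes was counted in CPM only, where 40.7% of genes tested stood apart and Tlr6 overlapped.

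The lipoprotein receptor gene Tlr2 (ENSMUSG00000027995, chromosome 3, 83836272 to 83841767, minus strand, GRCm38) was the most abundant Toll-like receptor transcript. It stood at 12.2, 14.0 and 12.9 FPKM in vehicle replicates 1, 2 and 3 and at 9.42, 9.87 and 8.82 FPKM in mitochondria replicates 1, 2 and 3. Every mitochondria library was below every vehicle library, and the values within a group lay close together. On the scale of CPM (deposited counts scaled to library size, with no correction for length), Tlr2 went from 42.1 ± 2.39 to 31.9 ± 1.99 (SD, n = 3 per group). The log2 fold change was -0.40 ± 0.10 (SE; 95% confidence interval -0.64 to -0.17; edgeR adjusted p = 0.034, range over 17 alternatives 0.0072 to 0.148). The call was lost without vehicle replicate 1 (adjusted p = 0.052, edgeR), vehicle replicate 2 (0.148), vehicle replicate 3 (0.122) or mitochondria replicate 3 (0.121), with upper-quartile scaling (0.059) and without a filter on low counts (0.058) or on FPKM (0.051, limma). The estimate stayed between -0.47 and -0.34 in all 17.

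The partners of TLR2 were far less abundant. Tlr6 and Tlr1 lie next to each other on the minus strand of chromosome 5, Tlr6 (ENSMUSG00000051498) at 64952031 to 64960048 and Tlr1 (ENSMUSG00000044827) at 64924679 to 64933561. Tlr6 stood at 1.65, 1.16 and 1.21 FPKM with vehicle and at 0.892, 0.782 and 1.11 FPKM with mitochondria. On the FPKM scale all mitochondria libraries were below all vehicle libraries, while on the CPM scale the groups overlapped, with 4.58 the lowest vehicle value and 4.63 the highest mitochondria value. The log2 fold change of -0.46 ± 0.23 (SE; 95% confidence interval -0.98 to 0.05) did not pass the threshold (edgeR adjusted p = 0.20, range over 17 alternatives 0.16 to 0.52), and it was -0.27 without vehicle replicate 1 and -0.24 with GC offsets (described for Tlr4). Tlr1 gave 13, 5 and 12 deposited counts with vehicle and 8, 26 and 26 with mitochondria, which is at most about 6.5 fragments in a library. Its groups overlapped, and its log2 fold change of 1.06 had a 95% confidence interval of -0.79 to 2.91 (edgeR adjusted p = 0.42, range over 13 alternatives 0.32 to 0.72). Both genes are uncertain where reads could fall on either: 15.4% of the 50-base words in Tlr1 transcripts and 12.3% of those in Tlr6 transcripts also occur in transcripts of other genes, most of them in the other member of the pair.

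The lipopolysaccharide receptor gene Tlr4 (ENSMUSG00000039005, chromosome 4, 66827584 to 66930284, plus strand) was expressed at 8.13, 9.04 and 8.05 FPKM in vehicle replicates 1, 2 and 3. With mitochondria it was at 3.32, 5.96 and 4.59 FPKM. The groups stood apart, and mitochondria replicate 1 was the lowest of the 6. The level went from 50.2 ± 2.88 to 29.0 ± 8.35 CPM (SD, n = 3 per group), a log2 fold change of -0.79 ± 0.19 (SE; 95% confidence interval -1.23 to -0.36; edgeR adjusted p = 0.028, range over 17 alternatives 0.00029 to 0.105). Tlr4 transcripts are rich in A and T, with a GC content of 42.2% against a median of 50.6% over the genes tested. With offsets that remove each library's trend on GC content, the change was -0.34 (edgeR adjusted p = 0.047). The call was lost without vehicle replicate 1 (adjusted p = 0.058, edgeR), vehicle replicate 2 (0.105), vehicle replicate 3 (0.089) or mitochondria replicate 3 (0.088), and without a filter on low counts (0.082) or on FPKM (0.077, limma).

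The endosomal receptors were low or at the limit of detection. Tlr3 (ENSMUSG00000031639, chromosome 8, 45395665 to 45411080, minus strand) stood at 0.987, 1.40 and 1.23 FPKM with vehicle and at 0.285, 1.02 and 0.723 FPKM with mitochondria. The groups overlapped, since mitochondria replicate 2 was above vehicle replicate 1, and mitochondria replicate 1 was again the lowest. The log2 fold change of -0.76 ± 0.39 (SE; 95% confidence interval -1.66 to 0.13) did not pass (edgeR adjusted p = 0.22). It was -0.40 without mitochondria replicate 1, -1.19 without mitochondria replicate 2 and -0.47 with GC offsets (adjusted p = 0.29, 0.078 and 0.32, edgeR; 0.078 to 0.44 over 17 alternatives). An antisense transcript, Gm45542, covers 7.32% of the exonic bases of Tlr3, and reads of both genes cannot be told apart unless the counting used strand, which is not given in the sources used here. Tlr9 (ENSMUSG00000045322, chromosome 9, 106222598 to 106226883, plus strand), the DNA receptor, was at 0 in 5 libraries and had 4 deposited counts, about 1 fragment, in mitochondria replicate 2. It was therefore not tested, and no fold is given. A count of 0 in a group allows up to 3 fragments, or 12 deposited counts, over its libraries, by counting error alone.

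The adaptor genes gave different results. Ticam1 (ENSMUSG00000047123, chromosome 17, 56269319 to 56276786, minus strand), which encodes TRIF, stood at 8.77, 8.12 and 8.46 FPKM in vehicle replicates 1, 2 and 3. With mitochondria it was at 13.5, 12.3 and 12.2 FPKM. Each mitochondria library was above each vehicle library by a margin larger than the range within either group. In CPM the level went from 27.2 ± 1.37 to 42.8 ± 2.60 (SD, n = 3 per group), a log2 fold change of 0.65 ± 0.10 (SE; 95% confidence interval 0.42 to 0.89; edgeR adjusted p = 0.0075, range over 17 alternatives 8.7e-06 to 0.054). The estimate was 0.51 with GC offsets and 0.51 to 0.72 over all alternatives. The adjusted p was 0.054 without vehicle replicate 2 and 0.053 without vehicle replicate 3 (edgeR), where the gene did not pass, and it passed without any other library.

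Myd88 (ENSMUSG00000032508, chromosome 9, 119335934 to 119340041, minus strand), the adaptor shared with the IL-1 receptor, had the highest FPKM of the members when averaged over all 6 libraries. It stood at 11.997, 15.6 and 14.8 FPKM with vehicle and at 12.001, 11.8 and 12.2 FPKM with mitochondria. On the FPKM scale vehicle replicate 1 lay among the mitochondria libraries, and vehicle replicates 2 and 3 above them. On the CPM scale vehicle replicate 1 (33.7) was below all mitochondria libraries (34.6 to 35.1). The log2 fold change was -0.16 ± 0.12 (SE; 95% confidence interval -0.43 to 0.10; edgeR adjusted p = 0.37), an interval that leaves room for a modest fall. It was -0.26 without vehicle replicate 1 and -0.32 with GC offsets (adjusted p = 0.16 and 0.083, edgeR; range over 17 alternatives 0.057 to 0.73). Exons of Acaa1a, a peroxisomal thiolase gene on the opposite strand, cover 11.3% of the exonic bases of Myd88. Acaa1a itself had a log2 fold change of 0.14 ± 0.11 (SE; adjusted p = 0.43, edgeR).

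Promoter sequence is shown for the adaptors, of which 1 rose, and for Tlr2, the most abundant receptor that fell. The bases come from RefSeq promoter windows on GRCm38.p6, which held 9 of the 10 members. Each window was searched over the 250 bases before the start, on both strands, for the NF-kB motif (GGG, any 2 bases, TTTCC), the interferon-stimulated response element (GAAA, any 2 bases, GAAA), the AP-1 motif TGANTCA and the STAT motif GAS (TTC, any 3 bases, GAA). Bases that an annotated exon covers are left out below, each sequence is read 5′ to 3′ on the gene's strand, and capitals mark motif matches.
Ticam1, chr17:56276787-56277017, minus strand: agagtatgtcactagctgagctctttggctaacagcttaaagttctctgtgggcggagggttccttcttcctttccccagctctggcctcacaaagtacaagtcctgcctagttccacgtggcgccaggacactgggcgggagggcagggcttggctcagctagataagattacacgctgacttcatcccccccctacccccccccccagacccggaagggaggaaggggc
Myd88, chr9:119340042-119340268, minus strand: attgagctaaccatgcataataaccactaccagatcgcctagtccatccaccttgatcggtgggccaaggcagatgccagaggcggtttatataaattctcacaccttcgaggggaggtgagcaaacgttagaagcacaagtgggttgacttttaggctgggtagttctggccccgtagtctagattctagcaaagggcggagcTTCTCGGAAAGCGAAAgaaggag
Tlr2, chr3:83841768-83841858, minus strand: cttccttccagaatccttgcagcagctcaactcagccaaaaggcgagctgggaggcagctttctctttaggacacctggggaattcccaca
Myd88 held a match to the interferon-stimulated response element, GAAAGCGAAA, 40 to 31 bases before the start, which overlaps a GAS match, TTCTCGGAA, 46 to 38 bases before it. The Ticam1 and Tlr2 windows held no match to any of these letters. Other forms of the motifs were not searched for, so a site of another form is not excluded. The printed Tlr2 bases hold gggaattccc, which differs from the searched NF-kB letters only at the base before the final CC. Of all 32851 windows of that length, 2.98% held the response element, 7.02% GAS, 6.75% AP-1 and 1.41% the NF-kB motif. Among the other members, Tlr3 held an NF-kB match, Tlr9 an AP-1 match, Tlr1 and Fpr2 a GAS match each, and a Tlr6 window 2 overlapping matches to the response element. The Tlr3 and Tlr1 matches lie in bases that an annotated exon covers. For the Tlr1 and Tlr6 windows with matches, the bases after the start were not found in an annotated transcript of the gene. A match is a string of letters in a window and was not tied to binding in these data.

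The formyl peptide receptor genes, which neighbour each other on chromosome 17, had few or no counts in most libraries. Fpr1 (ENSMUSG00000045551, 17876471 to 17883940, minus strand) gave 77, 0 and 0 deposited counts in vehicle replicates 1, 2 and 3 and 17, 16 and 30 in mitochondria replicates 1, 2 and 3. At 4 counts per fragment the vehicle signal is about 19.3 fragments, all in replicate 1, and the mitochondria signal about 4.25, 4 and 7.5 fragments. Fpr1 was thus seen in all 3 mitochondria libraries and in 1 vehicle library, which was higher than any of them. The fitted log2 fold change of -0.24 has a 95% confidence interval of -3.78 to 3.30 (edgeR adjusted p = 0.94), so neither direction is shown. Without vehicle replicate 1 the other vehicle libraries are both at 0 and the gene is called higher (adjusted p = 0.042, edgeR; 0.042 to 0.998 over 15 alternatives), a direction set by which library is left out.

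Fpr2 (ENSMUSG00000052270, 17887824 to 17893952, plus strand) gave 11 deposited counts, about 2.75 fragments, in vehicle replicate 1 and 0 in the other 5 libraries. It was not tested, and no fold is given because both groups are at or under the floor of 12 counts. Vehicle replicate 1 thus held all vehicle signal of both formyl peptide receptor genes. Phagocytes carry these receptors, and their part in the signal of that library was not tested. Its macrophage markers summed to 72.5 CPM, beside 57.4 and 71.6 CPM in vehicle replicates 2 and 3. Without Lyz2, the most abundant of them, they summed to 25.2 CPM, beside 24.3 and 32.3 CPM. Its neutrophil markers summed to 32.3 CPM, beside 31.4 and 29.6 CPM. Without Camp they summed to 18.03 CPM, beside 20.2 and 19.4 CPM. Of the 50-base words in Fpr2 transcripts, 31.5% also occur in transcripts of other genes, so reads of Fpr2 and its copies may not be separable.

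In order of their FPKM in vehicle libraries, the members ran Myd88 (14.1 ± 1.89), Tlr2 (13.0 ± 0.882), Ticam1 (8.45 ± 0.324), Tlr4 (8.41 ± 0.547), Tlr6 (1.34 ± 0.274) and Tlr3 (1.21 ± 0.207), with Fpr1, Tlr1, Fpr2 and Tlr9 below (SD, n = 3). Myd88 and Tlr2 overlapped in range, as did Ticam1 and Tlr4, and as did Tlr6 and Tlr3, while those 3 pairs stood apart from each other. In mitochondria libraries the order was Ticam1 (12.7 ± 0.749), Myd88 (12.002 ± 0.160), Tlr2 (9.37 ± 0.530), Tlr4 (4.63 ± 1.32), Tlr6 (0.927 ± 0.164) and Tlr3 (0.675 ± 0.369). There the first 5 had ranges that did not overlap, and Tlr6 and Tlr3 overlapped. Ticam1 thus moved from the third place to the first and stood apart from Tlr4, its neighbour in vehicle. The genes whose log2 CPM followed that of Myd88, the member of highest mean FPKM, most closely over the 6 libraries were Klhdc2 (Pearson r = 0.9897), Gm37123 (0.9870) and Ephb6 (0.9845), and 22 of 17282 genes exceeded 0.95. With 6 libraries this is a description.

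**Figure D2:**
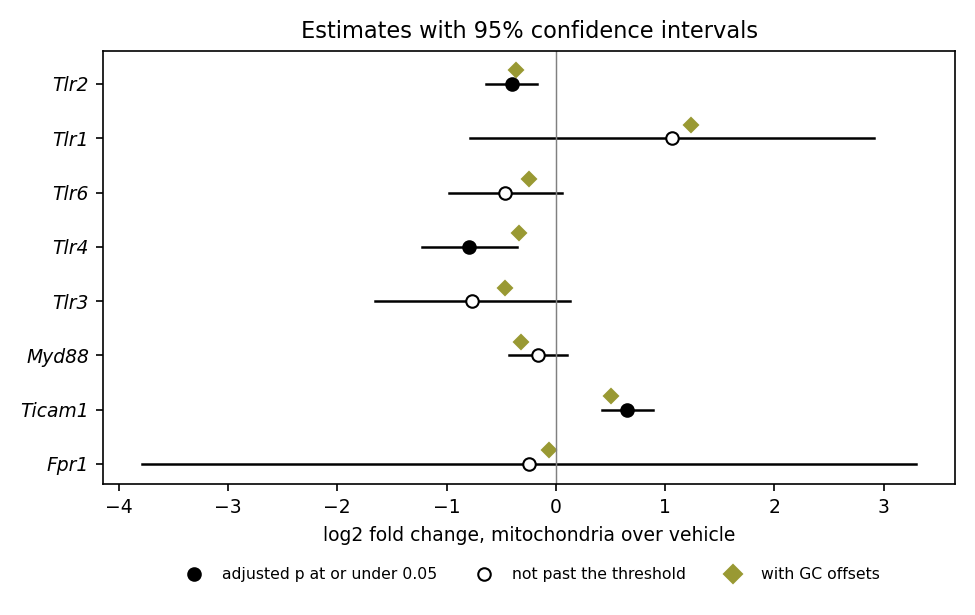
Log2 fold change of the 8 members tested, mitochondria over vehicle (x axis), with 95% confidence intervals from edgeR. Filled circles passed an adjusted p of 0.05, open circles did not, and diamonds are the estimates with GC offsets. Tlr2 (-0.40), Tlr4 (-0.79) and Ticam1 (0.65) have intervals that leave out 0.

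**Figure D3:**
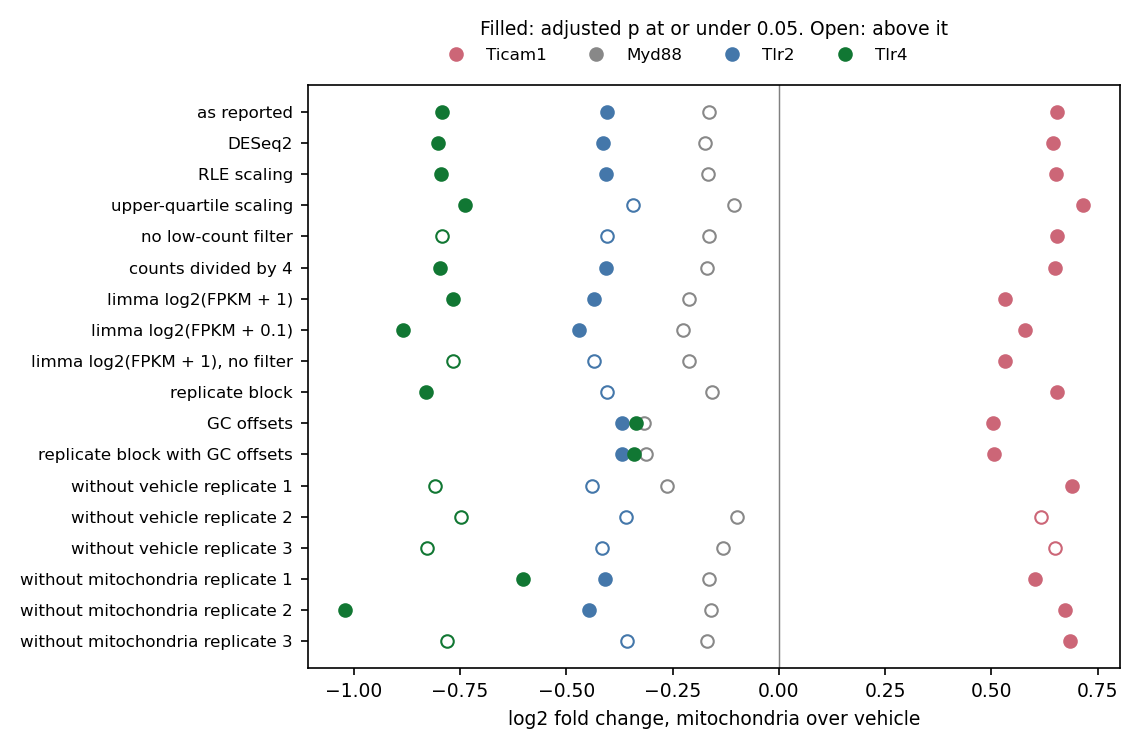
Log2 fold change (x axis) of Ticam1, Myd88, Tlr2 and Tlr4 as reported and under 17 alternatives (y axis), filled where the adjusted p was 0.05 or less. Ticam1 stays between 0.51 and 0.72, Tlr2 between -0.47 and -0.34, Tlr4 between -1.02 and -0.34 and Myd88 between -0.32 and -0.10.

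The groups' CPM did not overlap for 3 of the 8 members tested, Tlr2, Tlr4 and Ticam1, 2 lower and 1 higher with mitochondria. Over all genes tested 40.7% did not overlap, 20.9% lower and 19.8% higher, so the members' share is near the background and is no result about them. The estimates of 6 of the 8 were below 0, beside 49.7% of all genes. All 4 well-expressed members kept their direction under each alternative, as the plot of estimates by setting shows.

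The genes that act with these receptors were counted in lists of 86 genes, of which 80 were in the table and 77 were tested. Of these, 5 were higher and 8 lower (edgeR adjusted p of 0.05 or less), a share near the 14.8% of all genes, with a median log2 fold change of -0.04. No other Toll-like receptor gene passed among 4 tested (edgeR; 0 at an unadjusted p under 0.05 and 0 by DESeq2), and Tlr5, Tlr7 and Tlr13 stood at 0.320, 0.174 and 0.0874 FPKM with vehicle, while Tlr12 had no count in any library. Among co-receptors, chaperones and trafficking factors, 0 of 8 passed (edgeR; 2 at an unadjusted p under 0.05, and 2 by DESeq2). Hsp90b1, the chaperone of Toll-like receptors, changed by -0.05 ± 0.18, the lipopolysaccharide-binding protein Lbp by -0.40 ± 0.13 and the chaperone Cnpy4 by 0.03 ± 0.10 (log2, SE). The TLR4 partners Cd14 and Ly96 (MD-2), named after their values were seen, changed by 0.43 ± 0.13 and 0.24 ± 0.22 (edgeR adjusted p = 0.056 and 0.51). With GC offsets Ly96 was higher (0.88, adjusted p = 0.0091, edgeR), Hsp90b1 turned to 0.35 and passed (0.022), and Lbp was lower (-0.47, 0.021), while Cd14 did not pass (0.32, 0.069). Whether Tlr4 and its partners differed in their change was not tested. None of the 4 other TIR adaptors passed (edgeR; 1 at an unadjusted p under 0.05, 0 by DESeq2), among them Tirap, the bridging adaptor of MyD88 (-0.34 ± 0.14, adjusted p = 0.15), and Ticam2, the bridging adaptor of TRIF (0.67 ± 0.34, adjusted p = 0.22).

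Of 21 kinases, ligases and transcription factors below the adaptors, 1 was higher and 20 did not pass, with a median log2 fold change of -0.05. The gene that rose was Ikbkg, the regulatory subunit NEMO of the IκB kinase, from 9.01 ± 0.654 to 11.2 ± 0.270 FPKM (SD, n = 3; log2 0.39 ± 0.09 SE, edgeR adjusted p = 0.028). Among 10 negative regulators, Trim30a rose (log2 1.40 ± 0.34) and 3 fell: the deubiquitinase Cyld (-0.57 ± 0.13), the IRAK inhibitor Irak3 (-0.42 ± 0.12) and the IL-33 receptor Il1rl1 (-0.67 ± 0.15). Cyld changed by -0.07 and Il1rl1 by -0.35 with GC offsets, where neither passed (edgeR adjusted p = 0.56 and 0.086). Of the 13 genes called in all lists, Arrb1 and Il1rn, described below, also lost their calls with GC offsets (0.34 and -0.60, edgeR adjusted p = 0.063 and 0.072), and the other 9 kept theirs. In the IL-1 receptor arm, which shares Myd88, the receptor Il1r1 (-0.60 ± 0.12) and the antagonist Il1rn (-0.80 ± 0.22) fell among 6 tested and none rose.

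Ligands and G proteins moved in both directions. Of 11 endogenous ligands, 1 rose and 2 fell. Camp, the cathelicidin peptide that FPR2 recognises, rose from 17.2, 13.9 and 12.6 FPKM with vehicle to 29.8, 28.8 and 24.97 FPKM with mitochondria (log2 1.002 ± 0.16 SE, edgeR adjusted p = 0.0074), and it passed under all 17 alternatives (adjusted p of 6.4e-07 to 0.048). Annexin A1, Anxa1, also an FPR2 ligand, fell from 225 ± 22.2 to 136 ± 31.3 FPKM (log2 -0.66 ± 0.16, adjusted p = 0.030), with -0.27 under GC offsets (adjusted p = 0.034; 0.00039 to 0.112 over 17 alternatives). The proteoglycan Vcan fell as well (-0.97 ± 0.17). With GC offsets the ligand genes Dcn (0.75, edgeR adjusted p = 0.00072) and Tfam (0.59, 0.018) were higher too. So was Gnai3 of the G protein list (0.24, 0.0498), while Tab3 of the kinase list was lower (-1.03, 0.031). These genes were named after their values were seen. Of 13 G proteins, effectors and arrestins that serve formyl peptide receptors, the inhibitory subunit Gnai1 fell (-1.12 ± 0.23), Gnb1 (0.29 ± 0.08) and the arrestin Arrb1 (0.48 ± 0.13) rose, and 10 did not pass. These calls depended on which libraries were fitted, as did those over all genes. Over all genes, 1099 were higher and 1463 lower with all libraries. Without vehicle replicate 2 these were 130 and 316, and without vehicle replicate 3 they were 132 and 310. Of the 13 genes called, Camp kept its call whichever library was left out, Vcan lost it in 1 of 6 cases, Gnai1 and Il1r1 in 2, Cyld, Il1rl1 and Anxa1 in 3, Ikbkg in 4, Trim30a, Irak3, Gnb1 and Arrb1 in 5 and Il1rn in all 6. The lists held 1 higher and 1 lower gene when vehicle replicate 2 was left out. Leaving out vehicle replicate 3 gave 1 and 0, mitochondria replicate 2 gave 1 and 7, and mitochondria replicate 3 gave 1 and 3.

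**Figure D4:**
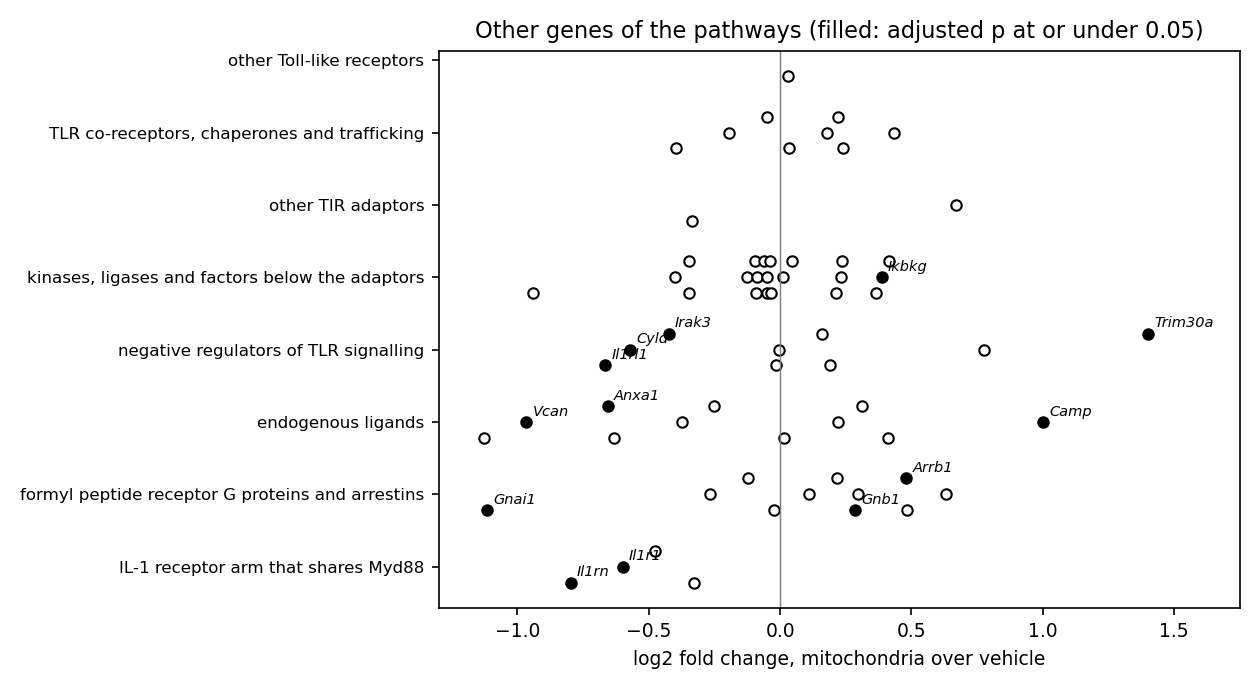
Log2 fold change, mitochondria over vehicle (x axis), of 67 tested genes of the pathway lists (y axis) with at least 600 deposited counts in all; 10 tested genes below that are left out. Filled circles passed an adjusted p of 0.05 and are named. Trim30a (1.40) and Camp (1.002) lie farthest to the right among the named genes, and Gnai1 (-1.12) farthest to the left.

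Markers of other cells were measured beside the receptors, since leukocytes and fibroblasts express them too. Of 15 macrophage and monocyte markers tested, none passed (edgeR; 2 at an unadjusted p under 0.05, 1 by DESeq2), and the 18 together summed to 57.4 to 72.5 CPM with vehicle and 51.7 to 62.3 CPM with mitochondria (exact two-sided permutation p = 0.30, where 0.10 is the smallest this design allows). Of 9 neutrophil markers tested, Camp, which is also in the ligand list, rose and none fell, with sums of 29.6 to 32.3 and 30.2 to 39.3 CPM (exact permutation p = 0.50). Camp made up much of that sum, and the other 8 neutrophil markers tested all had estimates below 0, though none passed. Without Camp, a choice made after the data were seen, the sums were 18.03 to 20.2 CPM with vehicle and 7.16 to 13.8 CPM with mitochondria, apart and lower (exact permutation p = 0.10, the smallest possible). The neutrophil sum without Camp was thus lower in the same libraries as Tlr2 and Tlr4, and its part in those results was not tested. Of 8 synovial fibroblast markers, Thy1 (-0.58), Pdgfra (-0.64) and Cdh11 (-0.78) fell and none rose, with sums of 8682 to 10022 and 8211 to 9424 CPM (exact permutation p = 0.20). These 3 fell in the same comparison as Tlr2 and Tlr4, and their part in that result was not tested. Of 3 dendritic and B cell markers and 5 endothelial markers tested, none passed (edgeR; 0 of either list at an unadjusted p under 0.05 and 0 by DESeq2), and the dendritic and B cell sums were 3.82 to 5.83 and 4.64 to 5.69 CPM (exact permutation p = 0.90), the endothelial sums 2.44 to 3.20 and 2.43 to 4.87 CPM (0.70). The endothelial genes Tie1 and Cldn5 had no count. Among 16 chondrocyte markers, Acan (0.54) and Sox9 (0.54) rose and Col11a1 (-0.94) and Hapln1 (-1.03) fell, with sums of 2391 to 2774 and 1981 to 2186 CPM (exact permutation p = 0.10). Of 4 osteocyte markers tested, Ibsp (-2.31) fell, and the list's sum of 154 to 236 and 244 to 271 CPM (exact permutation p = 0.10) was nearly all Pdpn, while Dmp1 and Sost, which define osteocytes, had 4 deposited counts in 1 library each and 0 in the others. Without the most abundant gene of each list, the endothelial sums were 1.17 to 1.37 and 2.15 to 3.55 CPM and the synovial fibroblast sums 3677 to 4139 and 3101 to 3267 CPM, both apart (exact permutation p = 0.10 each). The macrophage sums were then 24.3 to 32.3 and 26.3 to 30.4 CPM (exact permutation p = 0.70), and the osteocyte sums 1.17 to 2.04 and 0.714 to 1.69 CPM (0.30). Those of dendritic and B cells were 1.03 to 1.79 and 0.760 to 1.34 CPM (exact permutation p = 0.30), and those of chondrocytes 1337 to 1555 and 1030 to 1092 CPM (0.10).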

How the data were processed

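The authors deposited 1 table of 28812 genes with a pair of values for every gene in every library: FPKM, which the authors corrected for length and depth, and estimated counts (whole numbers, no normalisation). Bowtie 0.12.2, HISAT2 2.0, StringTie 1.3.0 and mm8 as a build come from the submitters' processing notes, which state no role. Of 28732 gene identifiers also in GENCODE M21, 25914 (90.2%) had the same span there, so positions are read as GRCm38, 1-based, as the table gives them. The spans of Tlr1, Tlr6 and Myd88 are among those that differ.

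All genes were fitted together with edgeR 4.0.16 under R 4.3.3. Library sizes were scaled by TMM, low genes were dropped by filterByExpr with a minimum of 10, and the quasi-likelihood model held group alone. Tests were two-sided, p-values were adjusted by Benjamini-Hochberg over 17290 genes, and 0.05 was the threshold. Each SE was derived from the test's F and so follows its p-value. Alternatives were DESeq2 1.42.0, limma 3.58.1 on log2(FPKM + 1) and log2(FPKM + 0.1), other scalings and filters, counts divided by 4, GC offsets (loess, span 0.3, on transcript GC content, known for 99.9% of genes tested), a replicate block, and leaving out each library. The fits were tested on simulated data. Members, gene lists and the naming rule (all members, all called genes of a list and at most 3 others of highest FPKM) were chosen with earlier results of these data known. Fpr3, 4 other paralogs of the Fpr family and Tlr11 were in the lists. They were not found by symbol in the deposited table, so they were not analysed here.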

Additional observations from a re-analysis of the deposited data

How the results depend on the processing

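Among 17 alternatives, Ticam1 kept its direction in all and its call in 15, Tlr2 its direction in all and its call in 9, and Tlr4 its direction in all and its call in 11. The number of members lower was 1 with upper-quartile scaling, 0 without a filter on low counts and 0 in limma without a filter on FPKM, against 2. Over all genes, 357 were higher and 507 lower without the count filter, 161 and 301 in limma without a filter, and 1693 were higher with GC offsets, against 1099 and 1463. Of the pathway genes, 1 was higher and 1 lower without the count filter, 1 and 0 in limma without a filter, 2 higher in limma with either pseudocount, 9 higher with GC offsets, and 13 lower by DESeq2, against 5 and 8. With 1 library left out, 0 to 2 members were higher and 0 to 2 lower, 130 to 1086 of all genes were higher and 310 to 1694 lower, and 1 to 7 pathway genes were higher and 0 to 9 lower. Tlr9 and Fpr2 had too few counts to pass the count filter. Fpr1, with 77 counts in 1 vehicle library and 0 in the other 2, reversed to 0.57 in limma with a pseudocount of 0.1 and ran from -0.83 to 7.43 with 1 library left out, the highest, without vehicle replicate 1, being a fitted value against libraries at 0 and no bound.

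With the replicate number as a block, 1 member and 5 pathway genes were lower (Tlr2 adjusted p = 0.056, edgeR), with GC offsets beside the block 9 pathway genes were higher, and Fpr1 was at 2.89 and 3.02 in these fits. The labels do not say that numbers pair the samples: same-number libraries correlated at 0.0371, 0.00907 and -0.0152 after removal of group means, and not every library correlated best with its own number. The cause of these changes was not tested.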

Other observations

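Within each library the ratio of Ticam1 to Myd88, the 2 adaptors, can be read on the FPKM scale. It was 0.731, 0.521 and 0.571 in vehicle replicates 1, 2 and 3 and 1.13, 1.04 and 1.01 in mitochondria replicates 1, 2 and 3, so the order of the adaptors was opposite in the groups. The ratio of Tlr4 to Tlr2 was 0.664, 0.647 and 0.626 with vehicle and 0.353, 0.604 and 0.521 with mitochondria. The ratio of Tlr3, a receptor that uses TRIF, to Ticam1 was 0.113, 0.172 and 0.146 with vehicle and 0.0211, 0.0830 and 0.0591 with mitochondria. The ratio of Tlr6 to Tlr2 was 0.135, 0.0827 and 0.0939 with vehicle and 0.0947, 0.0792 and 0.125 with mitochondria. These ratios were formed after the values were seen and were not tested. The groups overlapped for Tlr6 over Tlr2 and stood apart for the other 3. With GC offsets the log2 fold changes of Tlr4 and Tlr2 were -0.34 and -0.37, beside -0.79 and -0.40 without them, so the lower ratio of Tlr4 to Tlr2 is not seen with those offsets.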
